A study of Homo sapiens with 2 samples.

Results

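The genes described here are the 39 HOX genes of the HOXA, HOXB, HOXC and HOXD clusters, together with 7 genes of the MEIS and PBX families, the TALE cofactors of HOX proteins. They are the 46 protein-coding genes with such symbols among 20037 on the primary chromosomes of the RefSeq annotation of hg38. The question asked was where peaks of the transcription factor GFI1 lay around them in NB4 cells, an established human cell line from acute promyelocytic leukemia with the PML-RARA fusion. A peak belonged to a gene when its midpoint fell inside the gene or within 50 kb of either end. Chromatin immunoprecipitation followed by sequencing had been done with 2 antibodies to GFI1, ab21061 and sc8558, 1 library each, in cells to which the labels assign no drug and no genetic change. The listed peaks numbered 7687 for ab21061 and 7562 for sc8558. The protocol text speaks of antibodies to PML/RARα and 1 sample title reads GFI2, while both antibody labels read GFI1 and were followed. With 1 library per antibody there is no replicate spread, and every value below describes these libraries only.

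GFI1 is a zinc-finger repressor that brings histone demethylase and deacetylase complexes to DNA and restrains stem cell and monocyte genes in blood progenitors. HOX genes encode homeodomain transcription factors. Within each cluster they lie in the order in which they are used along the body axis, and Polycomb and Trithorax proteins hold the clusters silent or active. MEIS and PBX proteins are homeodomain factors of the TALE class that bind DNA together with HOX proteins. HOXA9 with MEIS1 or PBX3 is a well known driver of acute myeloid leukemia, whereas acute promyelocytic leukemia is known for low HOXA and MEIS1 expression.

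No HOX cluster held a region marked by both antibodies, and among the cofactor genes only PBX3 and MEIS3 did. Of the 46 genes 8 had an ab21061 peak within 50 kb (17.4%), against 31.7% of all protein-coding genes. An sc8558 peak lay within 50 kb of 9 of the 46 (19.6%), against 32.4% of all. A peak of either list lay within 50 kb of 13 of the 46 (28.3%), against 38.3%, and the other 33 had none. Overlapped peaks of both lists, sharing at least 1 bp, lay within 50 kb of 2 of the 46 genes (4.35%), against 24.3% of all. All these shares were below the background, but HOX genes of a cluster share peaks and are not independent, so distinct peaks were also counted.

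The gap to the background depended on the window. Inside the gene spans, 1 of the 46 genes had an ab21061 peak (2.17%) and 2 an sc8558 peak (4.35%), against 11.6% and 11.7% of all protein-coding genes. With 10 kb on either side the same counts, 1 and 2, stood against 17.4% and 17.8%. With 100 kb, 20 genes had an ab21061 peak (43.5%), near the 45.3% of all genes, while 13 had an sc8558 peak (28.3%), against 46.4%. The gap for ab21061 was thus lost by gene count. Distinct peaks hardly changed, with 8 of ab21061, against 7 at 50 kb, and 4 of sc8558 at both. The genes added for ab21061 were all HOXA and HOXD genes, which came within 100 kb of peaks already counted at 50 kb. At a score of 100 or more within 50 kb the counts were 5 (10.9%) and 1 (2.17%), against 16.3% and 16.5%. Most members are short, and gene length was not held equal in these shares.

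Counted once each, 7 ab21061 peaks and 4 sc8558 peaks lay in the 2.61 Mb covered by the windows of the 46 genes. Densities were 2.68 and 1.53 peaks per Mb, against 2.86 per Mb for both lists in the windows of all protein-coding genes. The ab21061 density was thus close to the background. Around the HOX genes alone the ab21061 density was 3.23 per Mb (3 peaks) and the sc8558 density 1.08 (1 peak). Around the MEIS and PBX genes they were 2.38 (4 peaks) and 1.79 (3 peaks). Of the 7 ab21061 peaks 3 were overlapped by an sc8558 peak (42.9%, exact Clopper-Pearson 95% interval 9.90 to 81.6), and of the 4 sc8558 peaks 3 were overlapped in turn (75%, 19.4 to 99.4). In the full lists 63.7% and 65.0% of peaks were overlapped, and both values lie inside those wide intervals. The intervals cover counting error only.

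The promoters of these genes were free of peaks in both lists as far as they could be examined. RefSeq windows on GRCh38.p14, from 250 bases before to 50 bases after the start of a gene, were matched for 26 of the 46 genes, and 0 of the 26 were overlapped by a peak of either list. Across 27305 such windows 1.75% were overlapped by an ab21061 peak and 1.81% by an sc8558 peak, so a count of 0 among 26 is near the background. GFI1 recognises DNA around the core AATC. The core, on either strand, was in 19 of the 26 windows and in 69.6% of all windows. A longer form of the known GFI1 sequence, AATCNNNGC, which contains the core, was in 3 of the 26 on either strand, those of HOXA7, HOXA10 and HOXD4, and in 11.2% of all. A match describes letters and is not evidence of binding.

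The 250 bases before the start of these 3 genes are shown because they hold the longer form without a peak, and those of HOXA13 because it is the HOX gene with a peak inside it. They are RefSeq sequence, printed 5′ to 3′ along the gene, with a match to AATCNNNGC in capitals. All 3 matches read on the opposite strand, so that the capitals show GCNNNGATT. HOXA7 is at chr7:27156676-27156925 (minus strand, match from base -38 to -30 before the start), HOXA10 at chr7:27179862-27180111 (minus strand, -201 to -193), HOXD4 at chr2:176151300-176151549 (plus strand, -209 to -201) and HOXA13 at chr7:27200092-27200341 (minus strand, no match and no AATC). The HOXA13 stretch had 78% G and C, that of HOXD4 47.6%.
HOXA7: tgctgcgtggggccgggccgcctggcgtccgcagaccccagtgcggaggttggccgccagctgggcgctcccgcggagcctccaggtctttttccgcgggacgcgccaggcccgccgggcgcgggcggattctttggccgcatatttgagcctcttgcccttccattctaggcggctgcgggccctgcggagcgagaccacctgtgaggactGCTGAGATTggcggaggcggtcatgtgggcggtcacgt
HOXA10: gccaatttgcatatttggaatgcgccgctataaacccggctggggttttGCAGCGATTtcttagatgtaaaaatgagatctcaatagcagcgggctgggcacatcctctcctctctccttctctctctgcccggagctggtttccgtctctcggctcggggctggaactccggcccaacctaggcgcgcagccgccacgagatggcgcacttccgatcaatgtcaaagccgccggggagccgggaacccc
HOXD4: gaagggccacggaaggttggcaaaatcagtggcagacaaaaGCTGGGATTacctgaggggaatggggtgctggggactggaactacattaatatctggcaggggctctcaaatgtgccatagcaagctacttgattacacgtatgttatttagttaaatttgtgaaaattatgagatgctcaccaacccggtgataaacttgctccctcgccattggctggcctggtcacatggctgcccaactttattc
HOXA13: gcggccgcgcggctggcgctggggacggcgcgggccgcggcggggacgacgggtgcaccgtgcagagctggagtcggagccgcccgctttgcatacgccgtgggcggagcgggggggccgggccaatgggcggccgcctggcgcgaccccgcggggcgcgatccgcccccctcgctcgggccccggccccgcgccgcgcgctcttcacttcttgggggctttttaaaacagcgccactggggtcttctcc

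The HOXA cluster, 11 genes on chromosome 7, was the HOX cluster with most peaks: 2 of ab21061 and 1 of sc8558, none of them overlapped by the other list. HOXA13, a gene of the posterior end of the cluster that patterns distal limb and hindgut, held the sc8558 peak. It ran from 27194948 to 27195580 with a score of 53.8, and 10.3% of the sc8558 peaks scored lower. Its midpoint was 4.83 kb into the gene from the start, in a gene of 5.73 kb, so it lay towards the far end and away from the promoter printed above. The nearest ab21061 peak was 53.1 kb away. Because HOX genes are close together, this 1 peak accounted for all 7 HOX genes counted with sc8558, which were HOXA3, HOXA6, HOXA7, HOXA9, HOXA10, HOXA11 and HOXA13. For HOXA9, the leukemia-linked gene, it was 29.7 kb away, and for HOXA10 15.4 kb. HOXA4 and HOXA5 had no peak of either list within 50 kb, with the nearest at 56.2 and 51.6 kb.

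Both ab21061 peaks at HOXA lay outside the cluster. The first, from 27248719 to 27249380 with a score of 54.99 (13.3% of the list lower), was 49.0 kb from HOXA13 but 1.22 kb from EVX1, a homeobox gene beside the cluster. The second lay in the flank at the opposite, anterior side of the cluster, 28.1 kb from HOXA2 and 34.7 kb from HOXA3, genes that pattern the hindbrain and pharyngeal arches. It was 1625 bp wide and scored 193.92, the highest score of any peak counted at a HOX cluster, with 85.8% of the list lower. Peaks of this score were rarely found with ab21061 alone. Of 1597 ab21061 peaks that scored 150 or more 20 had no sc8558 overlap, and by score this peak was number 3 among the 2791 ab21061 peaks without overlap. The nearest sc8558 peak was 122 kb away.

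The HOXB and HOXC clusters had 0 peaks of either list within 50 kb of any of their 10 and 9 genes. HOXB, on chromosome 17, includes HOXB4, known for expanding blood stem cells. The cluster lay whole in a stretch of 558 kb without a peak of either list, from 48282983 to 48840699. Beyond it were an overlapped pair in SKAP1, a T cell adaptor gene, 246 kb from the cluster, with scores of 132.66 (ab21061) and 55.97 (sc8558), and a pair in CALCOCO2, an autophagy receptor gene, 113 kb from HOXB13, with 85.83 and 170.21. HOXC, on chromosome 12, lay whole in a stretch of 648 kb. Its nearest peaks were a pair 158 kb from HOXC4, with scores of 67.84 and 87.38, and a pair 172 kb from it, 2.91 kb from CBX5, the gene of heterochromatin protein HP1 alpha, with 63.12 and 64.72.

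HOXD, 9 genes on chromosome 2 that pattern limb and trunk, had 1 ab21061 peak and 0 sc8558 peaks. The peak, from 176039161 to 176039850, scored 59.07 (21.6% of the list lower) and was 48.0 kb from HOXD13, just inside the 50 kb limit. It was nearer to LNPK, at 36.7 kb, and to EVX2, at 38.0 kb. The nearest sc8558 peak lay 415 kb from it. The other 8 HOXD genes were 60.3 to 149 kb from an ab21061 peak and 264 to 352 kb from an sc8558 peak.

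**Figure D1:**
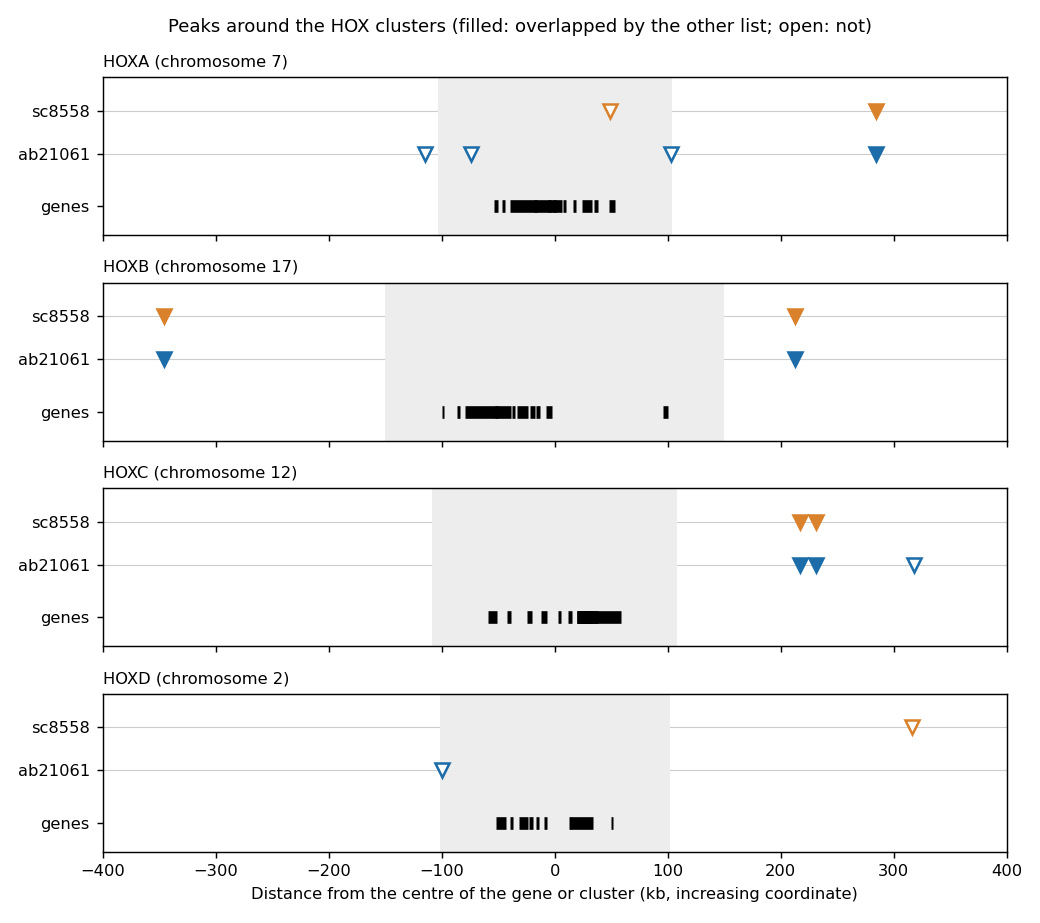
Position of peaks around the 4 HOX clusters, in kb from the centre of each cluster. Black blocks are HOX genes, grey marks the cluster with 50 kb on either side, triangles are peak midpoints of ab21061 (blue) and sc8558 (orange), filled where the other list overlaps. No filled triangle falls in a grey area, and the grey areas of HOXB and HOXC hold no triangle.

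Stretches of this length without a peak were ordinary for genes in these lists. Where a gene touched several stretches the longest was taken, and 19568 protein-coding genes touched at least 1. The median over these genes was 583 kb. The stretches at HOXB, HOXC and HOXD (558, 648 and 415 kb) were longer than those of 47.2%, 54.0% and 36.0% of genes, and the longest at HOXA (122 kb) than that of 6.58%. The HOX windows together covered 0.928 Mb and held 0 overlapped peaks. A count of 0 allows up to 3, or 3.23 per Mb, which is above the background of 1.87 overlapped ab21061 peaks per Mb around protein-coding genes. A lower density at the HOX clusters was therefore not detectable with these lists. HOX genes are short, and of the 34 members under 10 kb 0 had overlapped peaks within 50 kb, against 17.3% of all genes of that length. Nearly all of the 34 are HOX genes, which share windows within a cluster, so they are not independent observations. Of 76 RefSeq entries in the clusters, 34 were of types other than protein-coding. An ab21061 peak overlapped 0 of the 76, and an sc8558 peak overlapped 1, HOXA13. The share over all RefSeq genes was not counted, so nothing is concluded from this. Across all protein-coding genes 11.6% and 11.7% held a peak midpoint inside the span. HOTAIRM1, a noncoding RNA gene of the HOXA cluster known for its induction by retinoic acid in NB4 cells, was 23.8 kb from an ab21061 peak midpoint and farther from any sc8558 one. HOTTIP, the noncoding RNA gene beside HOXA13, was 41.8 and 5.16 kb away. HOTAIR in the HOXC cluster was 239 kb from both, and the microRNA gene MIR10A in HOXB was 262 and 261 kb away.

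Within a cluster, low-numbered genes are used anteriorly and high-numbered genes posteriorly. Of the 12 genes of groups 1 to 4, 3 had an ab21061 peak and 1 an sc8558 peak within 50 kb. The 11 genes of groups 5 to 8 had 0 and 2, and the 16 genes of groups 9 to 13 had 2 and 4. The shares over all protein-coding genes were 31.7% for ab21061 and 32.4% for sc8558. These counts come from the 3 ab21061 peaks and the 1 sc8558 peak already described and give no order among the groups.

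PBX3, a HOXA9 partner in leukemia, was the member with most peaks and the only one with overlapped peaks inside it. Both lists had 2 peaks within the gene, on chromosome 9 from 125747373 to 125967377, and each had its counterpart. The first pair lay 91.2 kb (ab21061 midpoint) downstream of the start given for the gene. The ab21061 peak ran from 125839121 to 125839712 with a score of 75.45 and the sc8558 peak from 125839259 to 125839870 with 92.35, and they shared 454 bp. Both peaks of this pair also overlapped LOC124902271, a noncoding RNA gene. The second pair lay 156 kb downstream of the start. The ab21061 peak, from 125904185 to 125905007, scored 113.27 (68.1% of its list lower) and held the whole of the sc8558 peak, 479 bp from 125904386 to 125904864, which scored 51.23 (3.61% lower). The second pair was thus above the middle of one list and near the bottom of the other. At a score of 100 or more PBX3 kept 1 ab21061 peak and 0 sc8558 peaks, so neither pair passed. Of the 4 members of 100 kb or more, PBX3 was the 1 that had overlapped peaks inside, against 25.1% of all 3356 protein-coding genes of that length. Whether these peaks lay in exons or introns was not examined.

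MEIS3, a less studied MEIS gene on chromosome 19, had the highest-scoring peaks of all members in both lists, although outside the gene. The ab21061 peak ran from 47384323 to 47391932 and scored 358.45, with 399 peaks of its list higher. The sc8558 peak ran from 47384463 to 47390127, lay entirely within it and scored 442.35, with 251 higher. The region was also very wide, at 7610 bp and 5665 bp, and 1 ab21061 peak and 7 sc8558 peaks were wider. The midpoints were 15.0 and 15.8 kb from MEIS3, beyond the end of the gene and 34.1 and 34.9 kb from its start. They were nearer to DHX34, an RNA helicase gene of nonsense-mediated decay, at 5.42 and 4.59 kb. Of the 8 members of 10 to 100 kb MEIS3 was the 1 with overlapped peaks within 50 kb, against 24.5% of all genes of that length.

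MEIS2 had a single ab21061 peak, from 37111947 to 37112597 on chromosome 15, with a score of 55.42 (14.5% lower). It was 11.0 kb beyond the gene, on the upstream side, with its midpoint at -13.2 kb from the start given for the gene. The nearest sc8558 peak to it was 972 kb away.

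**Figure D2:**
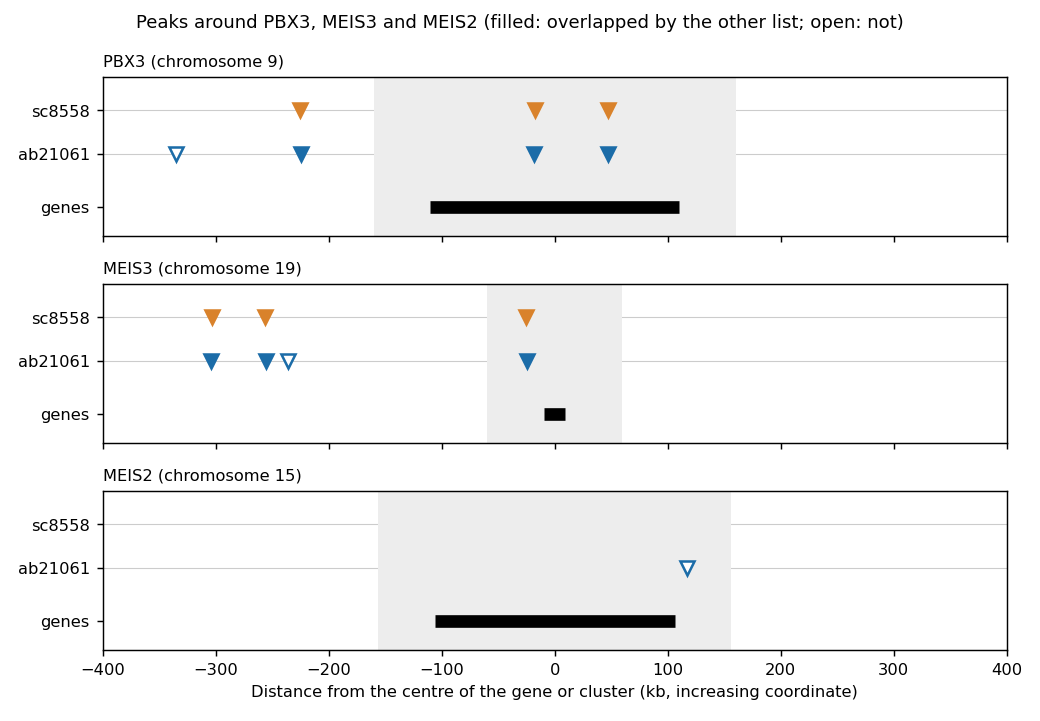
Position of peaks around PBX3, MEIS3 and MEIS2, in kb from the centre of each gene. Black bars are the genes, grey adds 50 kb on either side, triangles are peak midpoints of ab21061 (blue) and sc8558 (orange), filled where the other list overlaps. PBX3 holds 2 pairs, MEIS3 has 1 pair beside it and MEIS2 a single open ab21061 triangle.

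MEIS1, PBX2 and PBX4 had 0 peaks within 50 kb in either list. MEIS1, the HOXA9 cofactor in leukemia, was 1014 kb from the nearest peak of both lists, and 96.6% of protein-coding genes were closer to a peak. PBX4 was 1017 kb from an ab21061 peak and 967 kb from an sc8558 peak (96.2% closer). PBX2 was 321 and 353 kb away (81.6% closer). The stretches without a peak around MEIS1 and PBX4 were 2779 and 2603 kb, longer than those of 92.1% and 91.1% of genes. The cofactor genes named here thus ranged from PBX3, with peaks inside it, to MEIS1, with none within 1014 kb.

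Measured as distance, HOX genes were near the middle of all genes for ab21061 and farther out for sc8558 and for overlapped peaks. Their median distance to the nearest ab21061 peak was 113 kb (20.7 to 268 kb, 39 genes), against 120 kb for all protein-coding genes. For sc8558 the medians were 226 and 116 kb, and for the nearest overlapped ab21061 peak 260 and 180 kb. All HOX genes were 113 kb or more from an overlapped peak, with HOXB13 the nearest and HOXD13, at 488 kb, the farthest. For the nearest peak of either list, 65.4% to 78.0% of protein-coding genes were closer than the HOXC genes, 73.0% to 77.7% closer than the HOXB genes other than HOXB13, and 56.7% closer than HOXB13. The clusters with peaks ranked nearer, with 0% to 40.6% of genes closer than the HOXA genes and 37.6% to 63.9% closer than the HOXD genes. By cluster, distances to the nearest overlapped ab21061 peak ran from 230 to 334 kb at HOXA and 113 to 263 kb at HOXB. They ran from 158 to 268 kb at HOXC and 393 to 488 kb at HOXD. Genes of a cluster share their nearest peak, so these are 4 observations rather than 39.

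**Figure D3:**
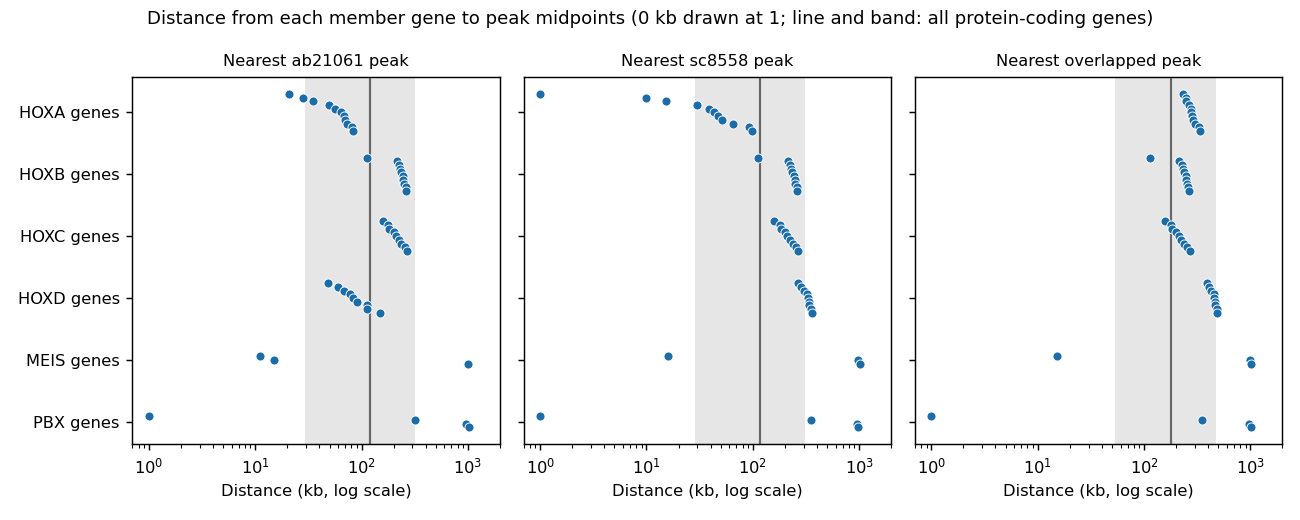
Distance in kb (log axis) from each of the 46 genes to the nearest ab21061 peak midpoint, sc8558 peak midpoint and ab21061 peak overlapped by sc8558, 1 point per gene, with 0 drawn at 1. The line and grey band are the median and the quartiles of all protein-coding genes (medians 120, 116 and 180 kb), and in the right-hand panel PBX3 and MEIS3 alone lie left of the band.

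Scores of peaks at members spread over both lists. The MEIS3 peaks were high in both, the PBX3 peaks ranged from 51.23 to 113.27, and 2 of the 3 ab21061 peaks and the sc8558 peak at HOX clusters were under 60, near the lowest listed score. Median scores were 75.5 and 73.1 for member peaks, against 82.4 and 81.7 in the full lists. Scores are used within a list only.

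**Figure D4:**
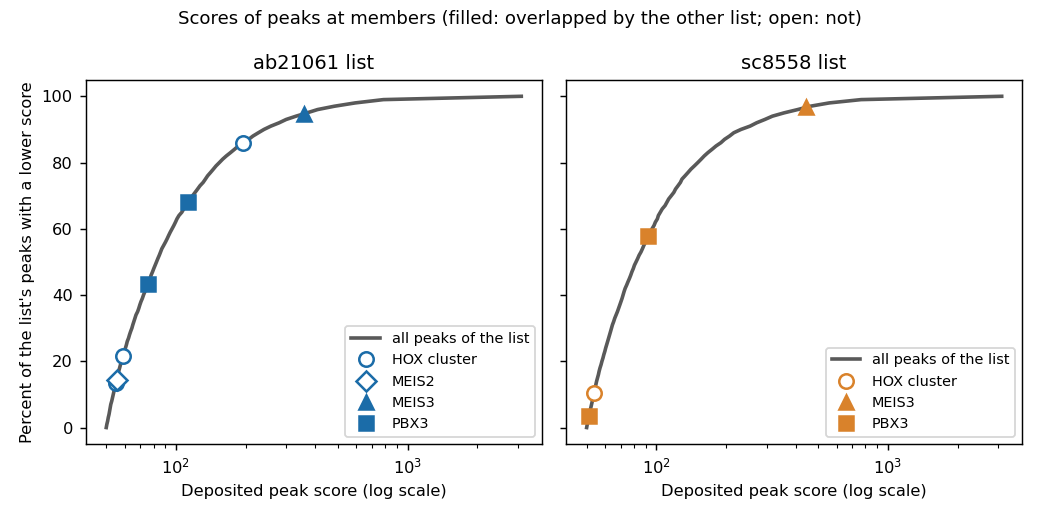
Deposited score (log axis) of each peak at a member against the percent of the same list with a lower score, for ab21061 (left) and sc8558 (right). The line is the whole list, and symbols are filled where the other list overlaps. MEIS3 stands highest in both panels, at 358.45 and 442.35, and the HOX cluster symbols are all open.

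Genes known to act with or on HOX genes were counted the same way, from lists chosen with earlier results of these data known. Overlapped peaks of both lists lay within 50 kb of 2 of 11 TALE homeobox relatives, 6 of 12 activators of HOX transcription, 3 of 12 Polycomb genes and 6 of 12 genes linked to HOXA9 and MEIS1 in leukemia, where all protein-coding genes gave 24.3%. These lists are small, gene length was not taken into account, and no test was made. Among the activators, AFF1, an MLL fusion partner, held a pair with scores of 175.62 and 149.82, and MLLT3, another such partner, a pair with 181.59 and 120.81. MEN1 (114.04 and 80.04, at 24.6 kb) and ELL (80.85 and 73.13, at 22.3 kb) followed. Of the genes linked to HOXA9 and MEIS1, MYB held a pair with scores of 566.47 and 699.07. SOX4, a transcription factor gene, had one of 451.49 and 620.96 at 0.183 kb. FLT3, a receptor kinase gene, held one with 427.01 and 278.49, and LMO2 had one of 190.38 and 173.48 at 39.0 kb. Of the Polycomb genes, EED had a pair with scores of 1219.31 and 1288.84, 42.6 kb away, MTF2 a pair with 240.94 and 260.95, 40.3 kb away, and PHF19 a pair with 82.09 and 100.92 inside it. The TALE relatives with a pair were PKNOX1 (66.21 and 109.13) and IRX5 (82.3 and 54.14). Of 14 neighbours of the clusters 6 had overlapped peaks within 50 kb. Beside HOXA these included HIBADH, a valine catabolism gene, with a pair of 593.61 and 530.07 at 35.6 kb, and SKAP2, an adaptor gene of myeloid cells, with a pair of 290.12 and 299.15 inside it. TTLL6 beside HOXB (85.83 and 170.21, at 24.4 kb) and SMUG1 beside HOXC (67.84 and 87.38, at 25.1 kb) had the pairs already described beyond those clusters. These distances are to the neighbour genes and not to the clusters. The HOXA cluster itself had no overlapped peak within 50 kb. The overlapped ab21061 peaks nearest to it were 427 kb away on the lower and 230 kb on the higher coordinate side. The one at 230 kb scored 93.21, and the sc8558 peak overlapping it 69.67.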

How the data were processed

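The series holds 1 peak list for each of 2 antibodies in NB4 cells. The build hg38 and the tools Bowtie2 2.2.9 and MACS 1.4.2 are named per the submitters' processing notes. Options, read filters and the control sample are not given in the labels used here. Scores in the deposited lists are the authors' values from the peak caller, and on the scale of MACS they grow as the p-value falls. Peaks were listed per library, and depth is unknown.

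Member genes were found by symbol in RefSeq (GRCh38.p14), with a window of 50 kb and overlap from 1 bp. Starts and strands came from the RefSeq promoter table, which was matched for 26 members; a start given there can differ from the outer end of the gene. Entries were not matched for HOXA5, HOXB2 to HOXB9, HOXB13, HOXC6, HOXC8 to HOXC13, HOXD9 and 2 other members, which are not reported by name here. Members and lists were chosen with earlier results of these data known. Genes were chosen by rule: all members were counted, each member peak is described, and up to 4 genes per related list are named, by the lower score of their best pair. No test between libraries was made. The alternatives were a score of 100 or more, windows of 0, 10 and 100 kb, any base in the window, 50% mutual overlap and equal numbers of top peaks. Counting was tested on simulated data. Python 3.11.15 was used, with matplotlib 3.10.9 for figures, scipy 1.17.1 for intervals, and pandas 2.3.3 and numpy 2.4.6.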

Additional observations from a re-analysis of the deposited data

How the results depend on the processing

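Counts at these genes are small and changed with most settings, in part because fewer or more peaks and bases enter by construction. At a score of 100 or more, 5 (ab21061) and 1 (sc8558) of the 46 genes had a peak, with 3 and 1 distinct peaks, of which 1 and 0 were at HOX clusters. The 1 sc8558 peak left, at MEIS3, was overlapped, which makes 100%, and neither PBX3 pair passed. It was so too with equal numbers of top peaks (100%). With a window of 10 kb, 1 and 2 genes had a peak (2.17% and 4.35%, against 17.4% and 17.8% of all genes), the ab21061 peaks numbered 2, with 0 at HOX clusters, and 100% of them were overlapped. Within the gene spans alone the values were the same, 1 and 2 genes, 2 ab21061 peaks, 0 of these at HOX clusters and 100% overlapped. In both settings sc8558 had 3 peaks, of which 1 was at HOXA, and 66.7% were overlapped. With a window of 100 kb, 20 genes had an ab21061 peak, a share near that of all protein-coding genes (43.5% against 45.3%). The gap seen at 50 kb was thus lost by gene count, but distinct ab21061 peaks numbered 8, against 7 at 50 kb. Under any base in the window, and for the shares under 50% mutual overlap, counts were within 1.5 times those given. HOXB, HOXC, MEIS1, PBX2 and PBX4 had 0 peaks of either list in every setting in which they were counted. No paired analysis was possible because each antibody had 1 library, and none could be left out.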
